A study of Mus musculus with 6 samples.

Results

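Cd274, Icam1, Csf1 and Lgals9 encode ligands through which liver tissue addresses T cells, other leukocytes and macrophages. The 4 genes were picked by name for that role, with earlier results of the same livers known, and all 4 were present among the 8390 genes of the deposited table. Gene expression had been measured by RNA sequencing of whole liver from C57BL/6 mice, a common inbred strain. The LV group was 3 mice given 3e8 transducing units of lentiviral vector (LV), a gene-transfer particle that cannot replicate, into a vein, with livers collected after 4 h. The 3 livers of the untreated group came from mice with no treatment. None of the mice had a mock injection, so the vector and the injection cannot be told apart, and the labels give neither age nor sex. The sample titles alone describe the replicates, so the p-values given for other genes measure the spread between these samples.

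Cd274 encodes the ligand of the inhibitory receptor PD-1 (gene Pdcd1) on activated T cells, and its engagement restrains them. Icam1 is an adhesion molecule of endothelium and other cells that leukocytes grip through integrins containing the chain Itgb2. Csf1 is the growth factor of macrophages and their precursors and acts through the receptor Csf1r, on which the resident macrophages of the liver, the Kupffer cells, depend. Lgals9 is a galectin with a pair of sugar-binding domains that can act on T cells through receptors such as Havcr2. The promoters of Cd274 and Icam1 are known targets of interferon signalling, in part through IRF1, and those of Icam1 and Csf1 of NF-kB.

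All 4 genes matched a RefSeq promoter entry of assembly GRCm38.p6, and the 250 bases before each annotated start are shown as a description. Capitals mark matches to 5 short motifs, searched on both strands.
Cd274: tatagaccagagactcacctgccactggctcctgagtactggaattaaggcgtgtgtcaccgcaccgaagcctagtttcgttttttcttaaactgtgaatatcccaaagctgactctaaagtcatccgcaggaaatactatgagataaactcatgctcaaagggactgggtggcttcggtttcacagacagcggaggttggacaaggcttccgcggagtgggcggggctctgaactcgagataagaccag
Icam1: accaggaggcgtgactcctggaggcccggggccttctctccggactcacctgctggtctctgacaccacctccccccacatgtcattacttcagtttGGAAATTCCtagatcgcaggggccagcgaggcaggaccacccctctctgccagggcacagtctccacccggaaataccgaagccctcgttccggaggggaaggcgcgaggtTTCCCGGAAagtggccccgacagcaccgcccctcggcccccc
Csf1: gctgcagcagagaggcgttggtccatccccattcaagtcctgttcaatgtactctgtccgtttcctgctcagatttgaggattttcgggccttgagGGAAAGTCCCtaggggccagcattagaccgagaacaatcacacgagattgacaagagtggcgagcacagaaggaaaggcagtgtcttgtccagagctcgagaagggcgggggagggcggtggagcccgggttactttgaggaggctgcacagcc
Lgals9: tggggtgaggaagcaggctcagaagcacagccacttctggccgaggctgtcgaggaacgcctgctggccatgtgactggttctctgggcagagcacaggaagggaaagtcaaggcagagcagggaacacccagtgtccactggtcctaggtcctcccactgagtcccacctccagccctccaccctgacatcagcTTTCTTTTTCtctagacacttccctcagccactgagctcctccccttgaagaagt
The stretches lie at chr19:29367188-29367437 (plus strand), chr9:21015690-21015939 (plus strand), chr3:107760470-107760719 (minus strand) and chr11:78984925-78985174 (minus strand) and are written 5′ to 3′ on the strand of the gene.

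The motifs were the ISRE core of interferon regulatory factors (GAAA, any 2 bases, GAAA), the GAS element TTCNNNGAA of STAT dimers, a first kappa-B form of NF-kB (GGG, any 3 bases, TTCC), a second kappa-B form (GGAAATTCC), and the AP-1 element TGANTCA. The search covered 300 bases per gene, 250 before the start and 50 from the start onward. Icam1 held a GAS match at bases -42 to -34 and a match to the second kappa-B form at -153 to -145. Csf1 held a match to the first kappa-B form on the opposite strand, at -154 to -145. Lgals9 held 2 ISRE core matches on the opposite strand, 1 at -55 to -46 and 1 after the start at bases 16 to 25. Cd274 held no match in this window, which says only that these letters are not there. No bases of the 4 windows matched more than 1 motif, although the kappa-B forms can share bases. Of 32851 mouse promoter windows of the same length, 3.44% held the ISRE core, 8.30% GAS, 5.56% the first and 0.317% the second kappa-B form, and 7.81% AP-1. A match is a run of letters and shows neither binding nor use.

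**Figure D1:**
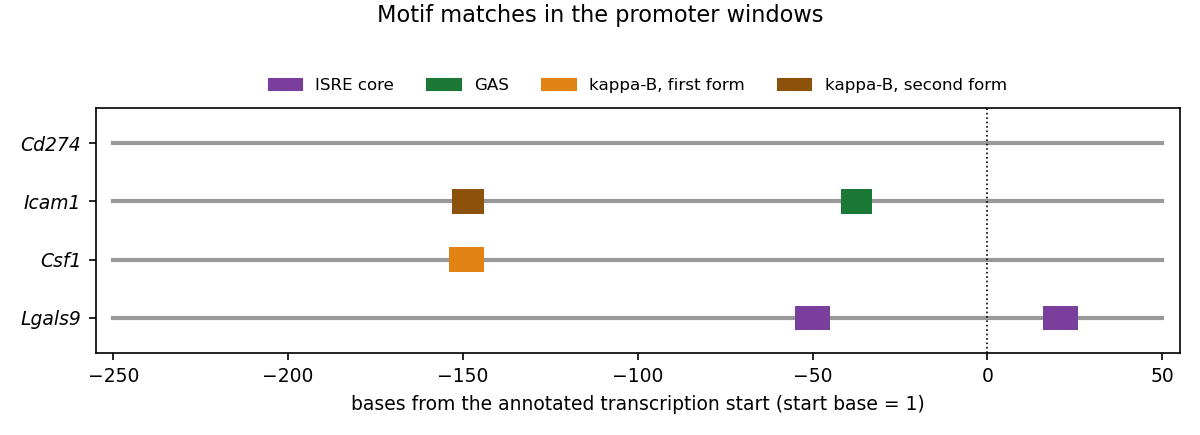
Motif matches in the 300-base promoter window of each ligand gene. The horizontal axis gives bases from the annotated start and coloured boxes mark matches to a motif on either strand; Lgals9 has 2 ISRE core matches, Icam1 a GAS and a kappa-B match, Csf1 a kappa-B match and Cd274 none.

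The deposited values are whole numbers whose unit is not named. Their library sums (497295 to 526009) and their floor by transcript length match reads scaled for library size and length and then rounded, so levels of different genes are compared on that per-length scale and the depth is unknown. A log2 fold change below is mean log2(value + 1) in LV minus that in untreated livers. Its SE is the moderated SE of the limma fit described below, which also draws on the spread of other genes. Because the 4 genes were chosen with this contrast known, their differences are a description and carry no test. In whole liver, fewer cells of a type and less RNA per cell cannot be told apart.

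Cd274, the T cell ligand, had values of 37, 29 and 31 in LV livers, against 1, 1 and 0 in untreated livers. It was close to the bottom of the table without treatment and well inside it after the vector: by mean level it ranked 1799 of 8386 tested genes in LV and 8370 in untreated livers. The groups did not overlap, and the lowest LV value was 29.0 times the highest untreated one. The log2 fold change was 4.38 ± 0.31 (SE, n = 3 each), the 24th highest of all tested genes. Its size depends on how near-zero values are handled, at 6.03 with a pseudocount of 0.1 and 2.72 with a pseudocount of 5. If values were rounded to the nearest whole number, the ratio of the means lies between 27.3 and 98.5. Only 2 untreated livers had a value of at least 1, so Cd274 passed the filter on low values through the LV livers.

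Icam1, the adhesion molecule, had values of 48, 50 and 32 in LV livers, against 8, 8 and 6 in untreated livers. LV replicate 3 lay below the other LV livers and was still 4.0 times the highest untreated value. The means were 43.3 ± 9.87 in LV and 7.33 ± 1.15 in untreated livers (SD, n = 3 each), a log2 fold change of 2.39 ± 0.21 (SE). Of the 4 genes Icam1 varied most among LV livers, with a coefficient of variation of 22.8%.

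Csf1, the macrophage growth factor, had values of 27, 26 and 25 in LV livers, against 4, 4 and 3 in untreated livers. The LV livers were nearly alike, with a coefficient of variation of 3.85%, and every one lay above 6 times the highest untreated value (6.25 at the least). The log2 fold change was 2.54 ± 0.12 (SE, n = 3 each). Rounding to the nearest whole number leaves the ratio of the means between 6.12 and 8.37.

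Lgals9, the galectin, had values of 751, 662 and 617 in LV livers, against 511, 466 and 351 in untreated livers. It was by far the most abundant of the 4 in both groups and had the smallest difference. The means were 676.7 ± 68.2 in LV and 442.7 ± 82.5 in untreated livers (SD, n = 3 each), a log2 fold change of 0.62 ± 0.17 (SE). The groups did not overlap, but the gap of 106 between them was less than the range within either group. By mean level Lgals9 ranked 96 of 8386 genes in LV and 134 in untreated livers, so its place in the table moved less than those of the other 3.

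**Figure D2:**
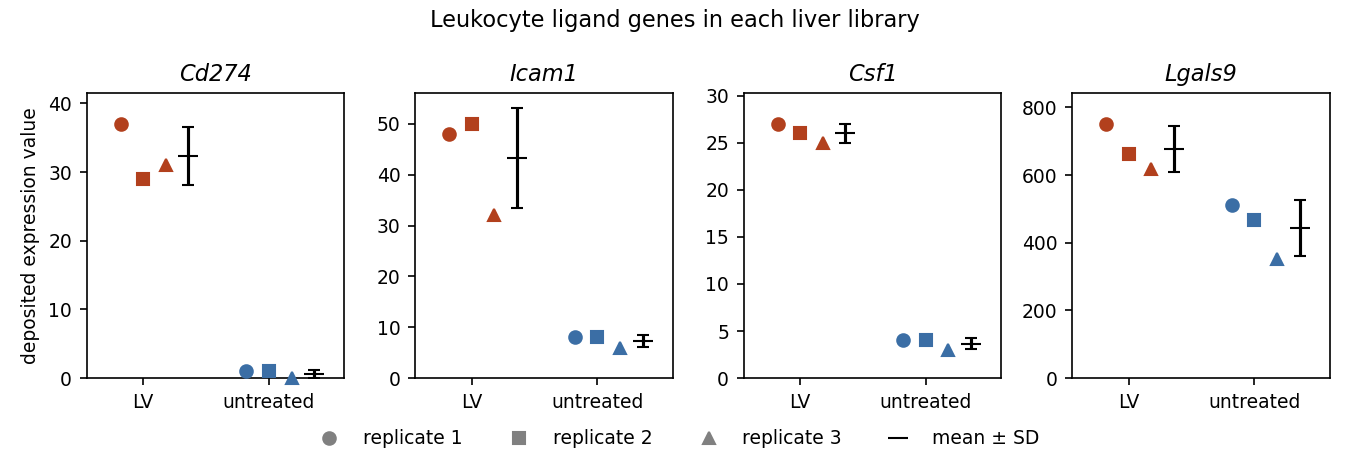
Deposited values of the 4 ligand genes in each liver, LV to the left of untreated, each panel with its own axis from 0. Symbols are replicates and the bar is mean ± SD (n = 3 each); in all 4 panels every LV point lies above every untreated point, with the narrowest gap in Lgals9 (617 against 511).

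On the per-length scale the order of the levels in LV livers was Lgals9, Icam1, Cd274 and Csf1. Icam1 (32 to 50) and Cd274 (29 to 37) overlapped there, whereas Cd274 and Csf1 (25 to 27) did not. In untreated livers the order was Lgals9, Icam1, Csf1 and Cd274, with no overlap between neighbours (351 to 511, 6 to 8, 3 to 4 and 0 to 1). Cd274 was thus last in untreated livers and above Csf1 in LV livers. Untreated replicate 3 had the lowest untreated value of all 4 genes, and LV replicate 3 the lowest LV value of Icam1, Csf1 and Lgals9 but not of Cd274.

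The limma fit, with p adjusted after Benjamini and Hochberg and a threshold of 0.05, called 388 of 8386 tested genes (4.63%), of which 315 were higher after the vector (3.76%) and 73 lower (0.870%). Cd274, Icam1 and Csf1 were among the 315, so 3 of the 4 were called, and Lgals9 was not. Every LV value lay above every untreated one in all 4 genes, as it did in 8.65% of tested genes. These counts follow from the way the genes were picked and support nothing. Over the whole table the median log2 fold change was -0.07. The log2 fold changes of Csf1 and Icam1 ranked 84th and 91st from the top and that of Lgals9 ranked 542nd.

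**Figure D3:**
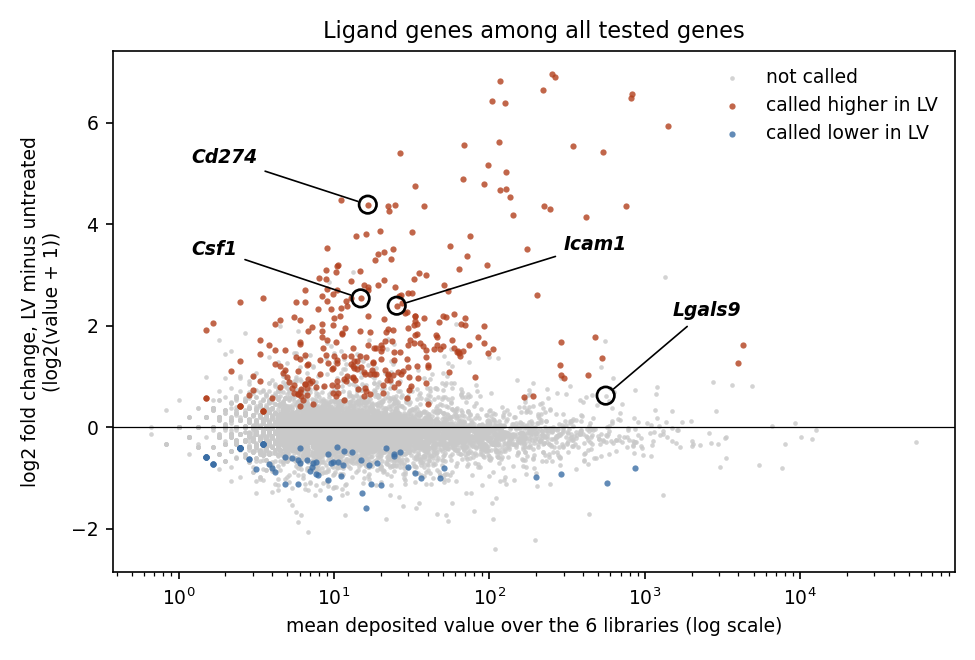
Log2 fold change (LV minus untreated, on log2(value + 1)) of all 8386 tested genes against their mean deposited value over the 6 libraries, on a log axis. Red and blue points are genes called higher (315) and lower (73), and circles mark the 4 ligand genes: Cd274 at 4.38, Csf1 at 2.54, Icam1 at 2.39 and Lgals9 at 0.62 among the uncalled genes.

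In 2 libraries, LV replicate 3 and untreated replicate 2, the male-biased liver gene Elovl3 had values of 169 and 159, against at most 4 in the other libraries. The Y-linked gene Ddx3y divided the livers otherwise, at 12, 12 and 13 in LV livers, against 10, 14 and 0 in untreated livers, so untreated replicate 3, which had the lowest untreated value of all 4 ligand genes, was the library listed at 0. The log2 fold changes without untreated replicate 3 were 4.05 for Cd274, 2.27 for Icam1, 2.43 for Csf1 and 0.47 for Lgals9. Without both libraries high in Elovl3 they were 4.58 for Cd274, 2.65 for Icam1, 2.62 for Csf1 and 0.73 for Lgals9. With these 4 livers Icam1 and Csf1 were called and Cd274 was not. With any single library left out, the log2 fold change of Cd274 ranged between 4.05 and 4.55 and that of Lgals9 between 0.47 and 0.74. Cd274, Icam1 and Csf1 were then called each time. The genes were picked with this contrast known, so these calls support nothing.

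The GENCODE annotation of GRCm38 lists 1 transcript for Cd274 (3622 bases), 2 for Icam1 (2203 and 2535 bases), 7 for Csf1 (773 to 4176 bases) and 4 for Lgals9 (742 to 1586 bases). The table has 1 value per gene, so isoforms, such as the membrane-bound and secreted forms of Csf1, were not measured apart. An antisense gene overlaps Cd274 (AC119228.1) and another overlaps Icam1 (Gm47079). The counting is not stated to use strand, so reads from these partners cannot be told apart from the ligand genes; Csf1 and Lgals9 overlap no other gene.

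The patterns most like each gene were found among 6763 other genes with a mean value of at least 5, by the root mean square difference of centred log2(value + 1) over the 6 libraries, a measure that uses both shape and size. Closest to Cd274 were Ifi47 (0.21), an immunity-related GTPase, Tor3a (0.21) and Gbp10 (0.28), a guanylate-binding protein whose close paralogs can share reads. Closest to Icam1 were Samhd1 (0.12), which depletes the nucleotides used in reverse transcription, Oas1g (0.14), an oligoadenylate synthetase with close paralogs, and Parp11 (0.14). Closest to Csf1 were Tlr3 (0.13), the receptor for double-stranded RNA, Tnfsf10 (0.14) and Ddx58 (0.15), a cytosolic RNA sensor. Closest to Lgals9 were Atp6v1b2 (0.056), a subunit of the proton pump of lysosomes, Pi4k2a (0.058) and Rnf14 (0.067). Among the 4 ligand genes Icam1 and Csf1 were most alike (0.19), and Cd274 and Lgals9 least (1.89). All these likenesses are descriptions over the same 6 libraries and were found at a pseudocount of 1 only. The size of the Cd274 change depends on the pseudocount, so its nearest genes may too.

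Most genes on the lists of receptors on T cells, leukocyte integrins and colony-stimulating factors were absent from the deposited table. None of the measured ones was called in limma. Cd44, on the list of galectin-binding proteins, was called and is given below. None of 17 listed genes for inhibitory and costimulatory receptors of T cells, Pdcd1 and Havcr2 included, was in the table. Pdcd1lg2, the other ligand of PD-1, was also absent. Of the leukocyte integrin list 6 of 16 genes were measured and 0 passed in limma, with 2 higher at an unadjusted p under 0.05, a threshold that 19.5% of all tested genes passed in either direction. Itgb2, the chain shared by the Icam1-binding integrins, had values of 6, 8 and 5 in LV livers, against 4, 2 and 3 in untreated livers (adjusted p = 0.125). Its partner chain Itgal was listed with values of 3, 6 and 3 in LV livers, against 4, 3 and 3 in untreated livers; both chains were named after their values were seen. For Itgb1, the most abundant of the list, the log2 fold change was -0.01, with an adjusted p of 1. Of 17 colony-stimulating factor and receptor genes 4 were measured and 0 passed, with 0 at an unadjusted p under 0.05. Csf1r, the receptor of Csf1, had values of 8, 19 and 11 in LV livers, against 25, 17 and 17 in untreated livers (log2 fold change -0.65 ± 0.33 SE, adjusted p = 0.337). The ligand gene was thus higher in every LV liver, while the values of its receptor overlapped between the groups.

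Other ligands and adhesion molecules changed in part. Of 25 listed T cell ligands other than Cd274, 9 were measured and 3 rose in limma, beside 3.76% of all genes, with a list median of -0.02. Tnfsf10, a death ligand, had values of 13, 12 and 11 in LV livers, against 1, 1 and 1 in untreated livers (adjusted p = 0.00047). Cd47, which signals to phagocytes not to engulf a cell, averaged 42 ± 1.73 in LV and 18 ± 1 in untreated livers (SD, n = 3 each; limma adjusted p = 0.00178). Tnfrsf14, the partner of the inhibitory receptor Btla of T cells, averaged 29.7 ± 4.16 in LV and 13 ± 2.65 in untreated livers (limma adjusted p = 0.0291). Its call was lost without LV replicate 1 or 2 or untreated replicate 2 or 3 (adjusted p between 0.0868 and 0.135) and without the libraries high in Elovl3 (0.103). Fgl1, the most abundant of the list, had 534, 375 and 260 in LV livers, against 214, 156 and 202 in untreated livers (adjusted p = 0.148).

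Of 20 adhesion molecules listed beside Icam1, 9 were measured and 1 rose (beside 3.76% of all genes), Vcam1, with 15, 15 and 11 in LV livers, against 4, 2 and 3 in untreated livers. Vcam1 is a ligand of leukocyte integrins that contain Itga4, and its log2 fold change was 1.89 ± 0.23 (SE, limma adjusted p = 0.0118). Dropping either of LV replicates 1 and 2, or untreated replicate 3, ended the call (adjusted p between 0.0707 and 0.0765). The median of the list was 0.15. F11r, a junctional adhesion molecule and the most abundant of the list, had 66, 50 and 43 in LV livers, against 31, 27 and 32 in untreated livers (adjusted p = 0.0804). Icam2 was not in the deposited table.

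Of 15 galectins and galectin-binding proteins beside Lgals9, 9 were measured and 2 rose, beside 3.76% of all genes, with a list median of 0.44. Lgals3bp, a secreted galectin-binding glycoprotein, had 136, 164 and 133 in LV livers, against 51, 57 and 46 in untreated livers (log2 fold change 1.47 ± 0.13 SE, limma adjusted p = 0.00387). Cd44, a receptor of hyaluronan, had 6, 9 and 4 in LV livers, against 2, 1 and 1 in untreated livers (adjusted p = 0.0498). Its call was lost without LV replicate 1 or 2 or any 1 of the untreated libraries (adjusted p between 0.0987 and 0.178). No galectin of the list itself passed. Lgals8 had 86, 81 and 100 in LV livers, against 52, 75 and 45 in untreated livers, again without overlap (adjusted p = 0.175). Lgals3, named after its values were seen, also had no overlap, at 6, 16 and 5 in LV livers, against 3, 2 and 4 in untreated livers (log2 fold change 1.19 ± 0.44 SE, limma adjusted p = 0.230), whereas Lgals1 overlapped (24, 24 and 8 in LV livers, against 18, 12 and 19 in untreated livers). P4hb, a disulfide isomerase that binds Lgals9, was the most abundant of the list, at 591, 575 and 491 in LV livers, against 617, 537 and 659 in untreated livers (adjusted p = 0.605).

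Of 36 listed genes of the interferon and NF-kB signalling known to act on the ligand promoters 32 were measured and 13 rose, beside 3.76% of all genes, 0 fell, and the median log2 fold change was 0.71. Irf1, which binds ISRE elements, had 92, 81 and 77 in LV livers, against 21, 17 and 15 in untreated livers (limma adjusted p = 0.00178, and 0.0520 without the libraries high in Elovl3). Stat2, Irf7 and Irf9, which act in type I interferon signalling, rose with log2 fold changes of 1.52, 3.19 and 1.70, and Tnfaip3, an inhibitor of NF-kB signalling, with 1.72 (limma adjusted p = 0.00144, 0.00486, 0.00987 and 0.0023). Tnfaip3 had an adjusted p of 0.0545 without the libraries high in Elovl3, and Irf9 one between 0.0562 and 0.0664 without LV replicate 1 or 2 or untreated replicate 1 or 3. Nfkbia, another inhibitor and NF-kB target, had 33, 44 and 36 in LV livers, against 38, 40 and 45 in untreated livers (adjusted p = 0.638). The 13 calls became 7 when LV replicate 1 was dropped and 5 when LV replicate 2 was. Dropping untreated replicate 1 left 6, dropping untreated replicate 3 left 7, and 7 were called without the libraries high in Elovl3.

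Of 13 genes for the turnover and shedding of the ligand proteins 12 were measured and 2 rose, beside 3.76% of all genes, with a list median of 0.00. Hip1r, which directs the Cd274 protein to lysosomes in human cells, had 29, 26 and 17 in LV livers, against 8, 8 and 9 in untreated livers (limma adjusted p = 0.0262). Rhbdf2, a partner of the shedding protease Adam17, had 13, 12 and 11 in LV livers, against 6, 3 and 4 in untreated livers (adjusted p = 0.0362). The call of Hip1r held only without LV replicate 3 and that of Rhbdf2 only without untreated replicate 1 when single libraries were left out, where the highest adjusted p was 0.130 for Hip1r and 0.151 for Rhbdf2. Cops5, the most abundant of the list, averaged 44.3 ± 5.13 in LV and 45.7 ± 4.73 in untreated livers (SD, n = 3 each; limma adjusted p = 0.873).

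**Figure D4:**
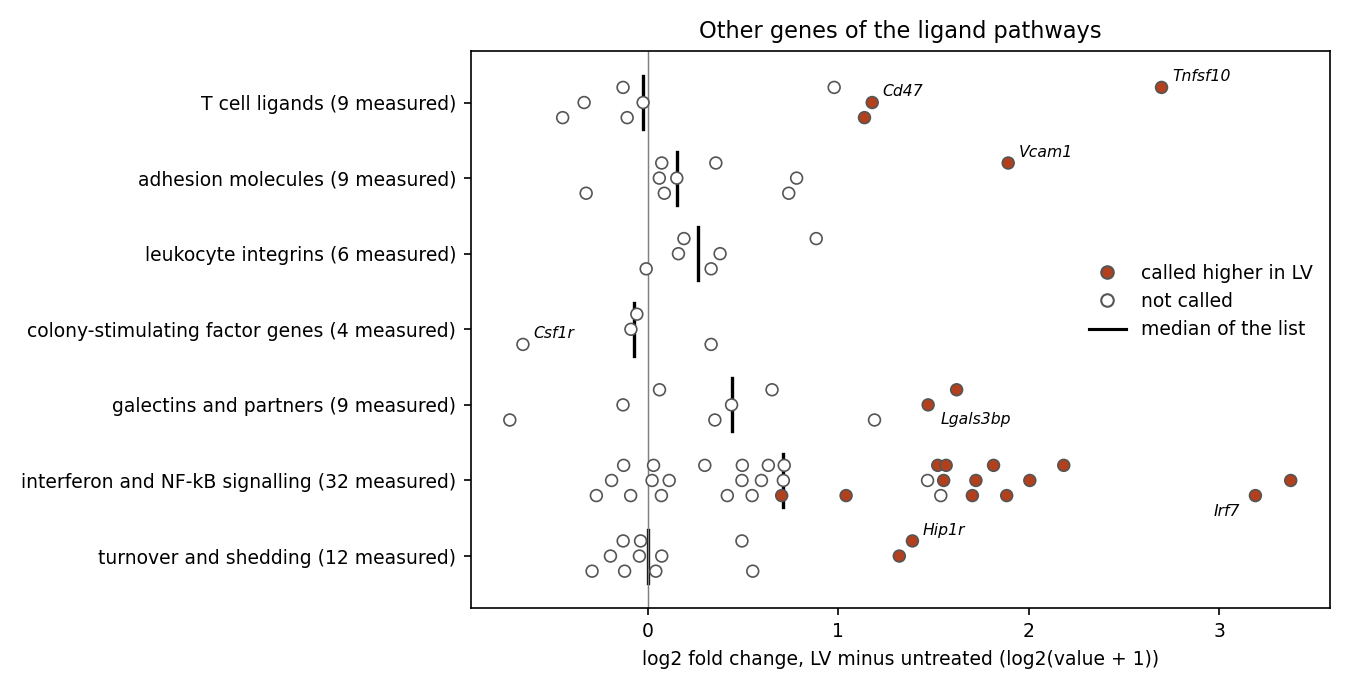
Log2 fold change (LV minus untreated, on log2(value + 1)) of each measured gene of 7 lists that surround the ligand genes; filled points are called higher, open points are not called, and the vertical bar is the median of the list. Of the signalling genes 13 of 32 are filled and of the colony-stimulating factor genes 0 of 4, with Csf1r at -0.65.

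No marker of the resident liver cells that can make or receive these ligands passed in limma. Hepatocyte markers were all measured (8 of 8), with 1 higher and 1 lower at an unadjusted p under 0.05, and Alb, the main plasma protein, was at 54529, 54467 and 41700 in LV livers, against 66000, 49014 and 69728 in untreated livers. Of 15 Kupffer cell markers 14 were measured, 0 passed in limma and 3 were lower at an unadjusted p under 0.05, beside the 19.5% of all genes that passed it in either direction. The log2 fold change was negative in 12 of these markers and positive in 2 (median -0.65), beside 58.1% negative among all tested genes. Their median log2 level relative to the untreated mean was -1.14, -0.12 and -0.64 in LV replicates 1, 2 and 3 and 0.23, -0.19 and -0.09 in untreated replicates 1, 2 and 3. The summed level of these markers was between 160 and 346 in LV livers, against 402 to 435 in untreated livers. Those sums include C6, which had 75 in LV replicate 3 and 110 in untreated replicate 2 and at most 5 elsewhere; without it, a choice made after its values were seen, they were 158, 344 and 240 in LV livers, against 425, 325 and 398 in untreated livers. All 14 sinusoidal endothelial markers were measured and 0 passed, with 1 higher at an unadjusted p under 0.05. The log2 fold change was negative in 11 of them and positive in 3 (median -0.39). Their summed level was 179, 295 and 274 in LV livers, against 328, 310 and 298 in untreated livers. LV replicate 1 thus had the lowest Kupffer and endothelial marker sums, and the highest values of Cd274, Csf1 and Lgals9, but not of Icam1, among all livers. This is 1 liver, and a link between these values was not tested.

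Of 12 stellate cell and fibroblast markers 10 were measured and 0 passed in limma, with 2 lower at an unadjusted p under 0.05. Their summed level was 183, 174 and 156 in LV livers, against 193, 159 and 205 in untreated livers. None of the 15 T and NK cell, 8 B and plasma cell, 10 neutrophil or 6 platelet markers was in the deposited table. The presence of these cells was therefore not analysed here. Of the 11 monocyte and dendritic cell markers only Lyz2 was in the table, and of 7 cholangiocyte markers only Spp1. Lyz2 had 86, 101 and 66 in LV livers, against 64, 50 and 51 in untreated livers (limma adjusted p = 0.174). The part of the cell makeup in the levels of the ligand genes was not tested.

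**Figure D5:**
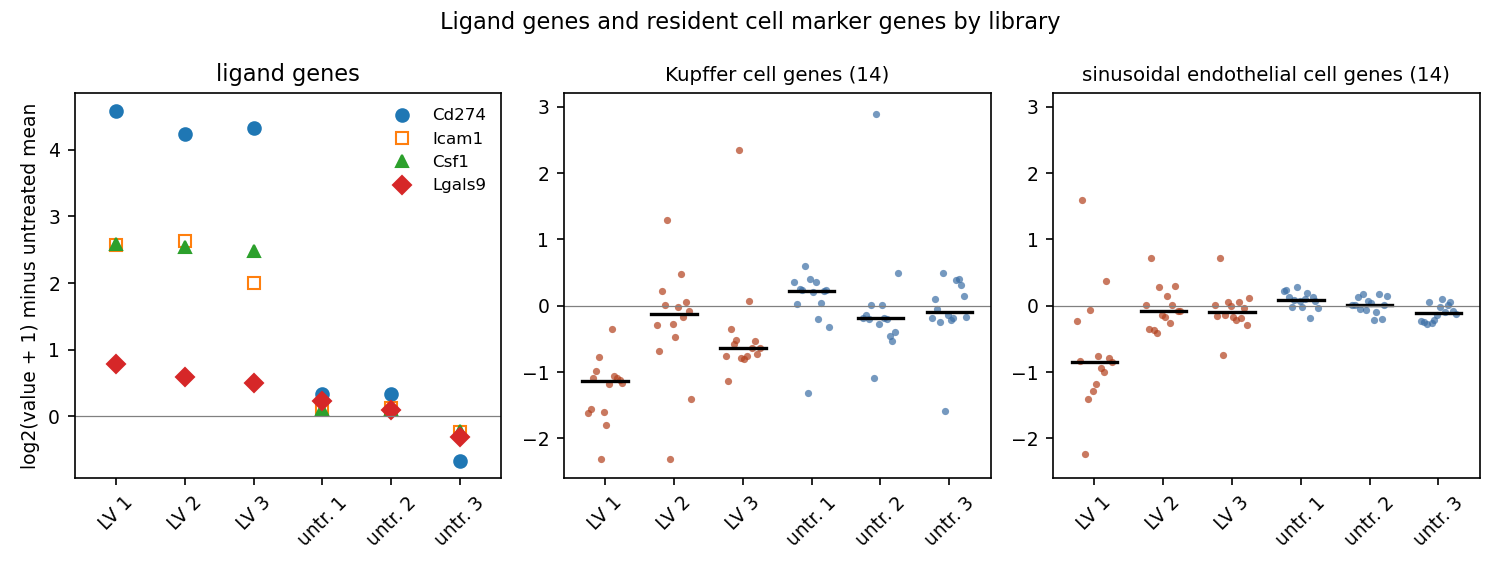
Level of the 4 ligand genes, of 14 Kupffer cell markers and of 14 sinusoidal endothelial markers in each library, as log2(value + 1) minus the mean of the untreated libraries; bars are medians over the markers. LV replicate 1 has the lowest marker medians (-1.14 for Kupffer cells), and its Cd274 lies 4.58 above the untreated mean. A link between the markers and the ligand genes was not tested.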

How the data were processed

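Per the labels' protocols, total liver RNA was sequenced after TruSeq RNA library preparation. The deposited values are a score: whole numbers that, judging by the values alone, the authors scaled for library size and transcript length and rounded. Among replicates the variance over the mean was 0.246 in LV and 0.238 in untreated livers for genes with means of 2 to 5, less than counted reads allow. The submitters' processing notes name the build mm9; no aligner, annotation or counter is named in the labels read here. Each of the 6 columns matched 1 sample by its description. How the 8390 genes were chosen is not known, and depth is unknown, so no counting intervals are given.

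The 8386 genes that reached 1 in 3 or more libraries were tested with limma 3.58.1 in R 4.3.3 on log2(value + 1), with an intensity trend, two-sided, Benjamini-Hochberg adjusted over all of them. The fit was also run on simulated log2 values with normal noise and no rounding, which cannot show how it handles low rounded values. The ligand genes, the 8 pathway lists and the 10 marker lists were chosen with earlier results of these data known. Of 265 list entries 129 were found, 4 by a unique RefSeq synonym. Named genes were the 4 ligands, up to 6 called genes and the most abundant gene of each list, 3 nearest patterns per ligand and a fixed set; exceptions are marked, and 1 result that the rule names is not reported here. Alternatives were other pseudocounts, filters and scalings, libraries left out and a replicate block. Promoters are from RefSeq (GRCm38.p6).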

Additional observations from a re-analysis of the deposited data

How the results depend on the processing

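Cd274, Icam1, Csf1 and Lgals9 had positive log2 fold changes under each alternative run. A pseudocount of 0.1 gave 6.03 for Cd274 and 2.80 for Csf1, and a pseudocount of 5 gave 2.72 for Cd274, 1.95 for Icam1 and 1.84 for Csf1; a larger pseudocount shrinks folds of low values by construction. With single libraries left out the ranges were 4.05 to 4.55 for Cd274, 2.27 to 2.59 for Icam1, 2.43 to 2.59 for Csf1 and 0.47 to 0.74 for Lgals9, and 3 of the 4 genes were called each time. Without LV replicate 3 and untreated replicate 2 together, 2 were called. As the genes were picked with this contrast known, these calls support nothing.

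With single libraries left out, calls over all genes ranged from 130 to 433 around 388 (LV replicate 1 dropped, 186; LV replicate 2 dropped, 130; untreated replicate 1 dropped, 192; untreated replicate 3 dropped, 203), T cell ligands from 2 to 3, adhesion molecules from 0 to 1, galectins and partners from 1 to 2, signalling genes from 5 to 13 and turnover genes from 0 to 1, and the integrin and colony-stimulating factor lists stayed at 0. Without LV replicate 3 and untreated replicate 2 the calls were 1 integrin (Itga1, adjusted p = 0.0199, named after its value was seen), 1 galectin partner, 7 signalling genes and 1 turnover gene. The galectin list also had 1 call with a pseudocount of 5, no filter, or a mean value of at least 5. The cause of these changes was not tested.

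The replicate block gave 156 calls over all genes, 0 adhesion molecules, 1 galectin partner and 0 turnover genes. The numbers do not pair the samples: same-numbered deviations correlated at 0.28, -0.47 and -0.34. Genes without a call changed sign: Itgb1 under median of ratios scaling (adjusted p = 0.887), without LV replicate 3 (0.878), when untreated replicate 2 was left out (0.670) and without both (0.349); Cops5 in the same settings (0.976, 0.921, 0.885 and 0.563); and Lgals1 when LV replicate 1 (0.918), LV replicate 2 (0.912) or untreated replicate 2 (0.911) was left out. With single libraries left out, adjusted p ranged from 0.656 to 0.962 for Cops5 and from 0.247 to 0.918 for Lgals1. Median of ratios scaling gave 477 calls over all genes. Unknown depth limits every low value, Cd274 in untreated livers most.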

Other observations

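The chromosomal neighbours of the ligand genes were listed after the main values were known, as the 5 protein-coding genes on each side in RefSeq (GRCm38.p6), which gave 40 neighbours, 24 of them measured. Of 6 measured neighbours of Cd274, 2 were called higher in LV livers, against 3.76% of all tested genes. Plgrkt, a plasminogen receptor gene directly next to Cd274 and listed under an older name, had 29, 27 and 21 in LV livers, against 10, 10 and 10 in untreated livers (log2 fold change 1.27 ± 0.13 SE, limma adjusted p = 0.00831). Its call was lost without LV replicate 2 or untreated replicate 1 or 3 (adjusted p between 0.0508 and 0.0562). Jak2, a kinase of interferon gamma signalling that lies 4 genes away, had 8, 7 and 8 in LV livers, against 4, 5 and 4 in untreated livers (limma adjusted p = 0.0297). Jak2 is also among the called genes of the interferon and NF-kB signalling list above, so it is counted in both places. Its call held only without untreated replicate 2 when single libraries were left out, with adjusted p values of up to 0.113. The 7 measured neighbours of Icam1, 6 of Csf1 and 5 of Lgals9 gave 0 calls in limma. Whether the neighbourhoods differ from each other was not tested.

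Of the promoter windows of genes called higher, 16.9% of 290 held the ISRE core, against 3.15% of 7621 windows of all tested genes. Each other motif was also more frequent in the windows of genes called higher. GAS was in 12.4% against 6.76% and AP-1 in 9.66% against 5.21%. The first kappa-B form was in 12.4% against 6.06% and the second in 1.72% against 0.367%, so the share of the second form rests on few windows. The windows of genes called higher include those of Icam1 and Csf1, whose matches are given above. Of the 4 ligand genes only Lgals9 held the ISRE core. Its absence from the Cd274 window says only that these letters are not there. A link between a match and the size of a change was not tested. The windows include several per gene for some genes, and this is a description with no test.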
